A study of Mus musculus with 60 samples.

Results

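Pak3, Cul4b, Syn1, L1cam, Dcx and Cask are 6 X-linked mouse genes with a role in neurons or intellectual disability, and defects of their human counterparts cause neurodevelopmental disorders. They were chosen by name, and are 6 of the 490 X-linked genes and of the 14383 genes in all that the files list. Allele-specific RNA-seq data were available from 60 libraries of F1 2-1 cells, a female mouse ESC line with a 129/Sv and a Cast/Ei set of chromosomes, so that reads over a polymorphism can be assigned to an allele. All clones carry the transactivator M2rtTA at the Rosa26 locus and a doxycycline-responsive Xist transgene, and each clone is 1 cell line. The study used them to ask how Xist RNA silences genes from different genomic locations. In Tg-E clones 87 and 68 the transgene lies at the Xist locus of the Cast X. In Tg-X clones 85, 86, 109 and 190 it was integrated at random on the Cast X, in clone 109 near the Xist locus. On the 129 X;8 translocation chromosome it lies in clones 203b, 267 and 339, named Tg-X;8. Tg-X and Tg-X;8 clones both carry the t(X;8) translocation, and clone 267 also carries a Tsix-Stop allele on its 129 X. In Tg-12 clones 228, 273 and 38 the transgene lies on 1 of the 3 copies of chromosome 12, so that none of the 6 genes is in cis with it. ESC libraries, labelled minus or plus, were without doxycycline or treated with 2 µg/ml for 5 days. There were 2 untreated and 3 treated libraries of Tg-E, 8 and 8 of Tg-X, 6 and 5 of Tg-X;8, and 6 and 6 of Tg-12 clones. Clone 160, with 2 and 2 libraries, is given as values only, because its label places the transgene on the X and the study places it on chromosome 12. It also carries the Tsix-Stop allele on its 129 X. Neurons were collected at day 14 of differentiation from Tg-12 cells labelled 20 and 38, with 1 untreated and 1 doxycycline-treated library each. Label 38 is a sublabel of clone 55 in the study, and label 20 was taken as the same clone. For a further 8 libraries of Tg-12 clone 292 the cell type label, the title and the name inside the file do not match each other, so they were put in no group and are given library by library. Of these, the 4 whose titles lack the letter N are as deep as the neuron libraries, and the 4 with N are as shallow as the ESC libraries. All 8 also differ from the other Tg-12 libraries at the distal end of the X, as given with their values.

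The X chromosome carries many genes needed for brain development. Because female cells silence 1 X, a mutation in such a gene affects only those neurons that keep the mutated X active. Pak3 is a kinase downstream of the GTPases Rac1 and Cdc42 that shapes dendritic spines. Cul4b is the scaffold of a ubiquitin ligase present in nearly all cells. Syn1, synapsin I, tethers synaptic vesicles to actin. L1cam is a cell adhesion molecule of growing axons. Dcx, doublecortin, stabilises microtubules in young migrating neurons and is a common marker of newborn neurons. Cask is a membrane-associated scaffold that joins neurexins and syndecans to the Lin7 and Apba proteins.

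In GRCm38 the genes lie in the order Cask at chrX:13517080-13846783, Syn1 at chrX:20860511-20920918, Cul4b at chrX:38531616-38576196, L1cam at chrX:73853778-73880838, Pak3 at chrX:143518366-143797796 and Dcx at chrX:143855842-143933396. Pak3 is on the plus strand and the other 5 are on the minus strand. Pak3 and Dcx are neighbours, 58.0 kb apart. Exons of Syn1 share bases with Araf, so its counts are less certain than those of the others. RefSeq promoter windows of GRCm38.p6, 250 bases before a gene start, were at hand for 5 of the 6 genes. Syn1 and L1cam are shown as genes listed here mainly in the deep libraries, Cul4b as the gene listed almost everywhere and Dcx as the gene with the widest range of levels in neurons. Each window is written 5′ to 3′ on the strand of the gene, with matches to the letters searched in capitals, and for Dcx and L1cam the bases that lie in an exon of a longer transcript are left out.
Syn1, chrX:20920919-20921168: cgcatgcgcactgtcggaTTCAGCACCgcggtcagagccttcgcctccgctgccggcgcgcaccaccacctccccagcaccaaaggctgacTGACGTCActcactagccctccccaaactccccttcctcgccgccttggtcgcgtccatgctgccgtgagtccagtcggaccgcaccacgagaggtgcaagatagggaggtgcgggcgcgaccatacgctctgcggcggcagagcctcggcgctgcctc
L1cam, chrX:73880839-73881084: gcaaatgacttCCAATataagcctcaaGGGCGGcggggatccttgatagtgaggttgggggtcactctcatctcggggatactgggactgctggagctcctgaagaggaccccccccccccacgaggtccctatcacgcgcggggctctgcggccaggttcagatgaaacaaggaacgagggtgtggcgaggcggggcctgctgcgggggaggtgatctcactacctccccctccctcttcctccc
Cul4b, chrX:38576197-38576446: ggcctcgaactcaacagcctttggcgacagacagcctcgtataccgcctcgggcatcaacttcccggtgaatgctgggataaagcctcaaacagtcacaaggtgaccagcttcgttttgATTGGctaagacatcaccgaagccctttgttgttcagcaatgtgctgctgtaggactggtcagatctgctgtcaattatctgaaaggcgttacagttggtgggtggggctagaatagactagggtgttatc
Dcx, chrX:143933397-143933469: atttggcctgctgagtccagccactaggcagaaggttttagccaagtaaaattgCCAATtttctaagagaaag

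Counted back from the base before the transcript start of each window as -1, the Syn1 window holds the letters of an RE1 half-site, TTCAGCACC, from -232 to -224 and of a cAMP response element, TGACGTCA, from -159 to -152. On both strands of all 32817 promoter windows, these letters are found in 0.302% and 1.55% of the windows, respectively. RE1 elements are bound by REST, a repressor of neuronal genes outside the nervous system. The L1cam window holds a CCAAT box from -239 to -235 and a GC box, GGGCGG, from -223 to -218, and the Cul4b window a CCAAT box on the opposite strand from -131 to -127. In Dcx a CCAAT box lies from -196 to -192. CCAAT is found in 33.8% and GGGCGG in 32.7% of all windows, so these matches are common ones. TATAAA, found in 12.4% of windows, and the E-box CAGCTG, found in 13.0%, were searched as well. TATAAA lies from -98 to -93 in the exonic bases of the Dcx window that are not printed, and neither has a match in the letters shown. G and C make up 68.0% of the Syn1, 63.2% of the L1cam, 50.8% of the Cul4b and 41.6% of the whole Dcx window, and the median of all windows is 52.4%. A match describes the letters of a window and does not show that a factor binds there.

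No gene is listed in a library with under 8 allele-specific reads. The study also asked for 5 reads at each polymorphic site, or 8 in genes with a single site. A gene missing from a library was thus below such a read limit and not necessarily silent. The allele-specific reads numbered 731374 to 5830149 in an ESC library, in neuron libraries 7068712 to 10698003, and in the 292 libraries without N 9737868 to 10726944. Levels are HTSeq counts of all reads of a gene per 1e6 reads of the 4746 genes listed in every library, abbreviated CPM. Xist itself was at 206 to 2505 CPM in doxycycline-treated ESCs, and at 28.2 to 345 CPM in the untreated ESC libraries that list it. In neurons it was at 763 CPM in 20 minus and 1503 CPM in 38 minus without doxycycline, against 3021 CPM in 20 plus and 2038 CPM in 38 plus. The neuron label was checked against 15 neuron markers. These summed to 375 CPM in 20 minus, 304 in 20 plus, 1503 in 38 minus and 191 in 38 plus, against 100 to 378 CPM in ESCs, so that only 38 minus is above the range of ESCs. In the same order 12, 7, 14 and 8 of the 15 are listed, against 2 to 7 in ESCs, and Stmn2 is listed in no library. A marker that is not listed adds nothing to a sum, so the sums of shallow ESC libraries are too low by an unknown amount. The 9 pluripotent cell markers summed to 2639 to 4903 CPM in the neuron libraries, against 7772 to 13931 CPM in ESCs.

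Cul4b and Cask were widely listed, whereas Pak3, Syn1, L1cam and Dcx were listed mainly in the deep libraries. Cul4b is listed in 55 of 60 libraries, 43 of 48 from ESCs, and Cask in 46, of which 34 are from ESCs. L1cam is listed in 9 libraries, Pak3 and Dcx in 8 and Syn1 in 6. The 1 ESC library that lists any of these 4 genes is 190 plus 2, with 8 allele-specific reads of L1cam. Since the deep libraries differ from ESCs in depth as well as in cells, the listing alone does not separate a low level from a low depth. Of 83 other X-linked neurodevelopmental disease genes on a fixed list, 71 are listed somewhere and 13 of these in no ESC library. The same count over all X-linked genes is not given here, so these numbers do not set disease genes apart.

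Per kb of exon, Cul4b had the highest level of the 6 genes in each neuron library, with 126 to 172 CPM per kb, and Dcx in 38 minus followed with 33.3 CPM per kb. In ESCs the CPM of Cul4b ranged from 404 to 988 with a median of 708 (43 libraries), and in neurons from 635 to 869. The CPM of Cask ranged from 29.0 to 83.0 with a median of 60.1 in ESCs (34 libraries), and was 94.8 in 20 minus, 95.0 in 20 plus, 124 in 38 minus and 84.9 in 38 plus. All 4 neuron values of Cask lie above every ESC value, as do those of 9.54% of the 7326 genes listed in at least as many ESC libraries, while those of Cul4b lie within the range of ESCs.

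**Figure D1:**
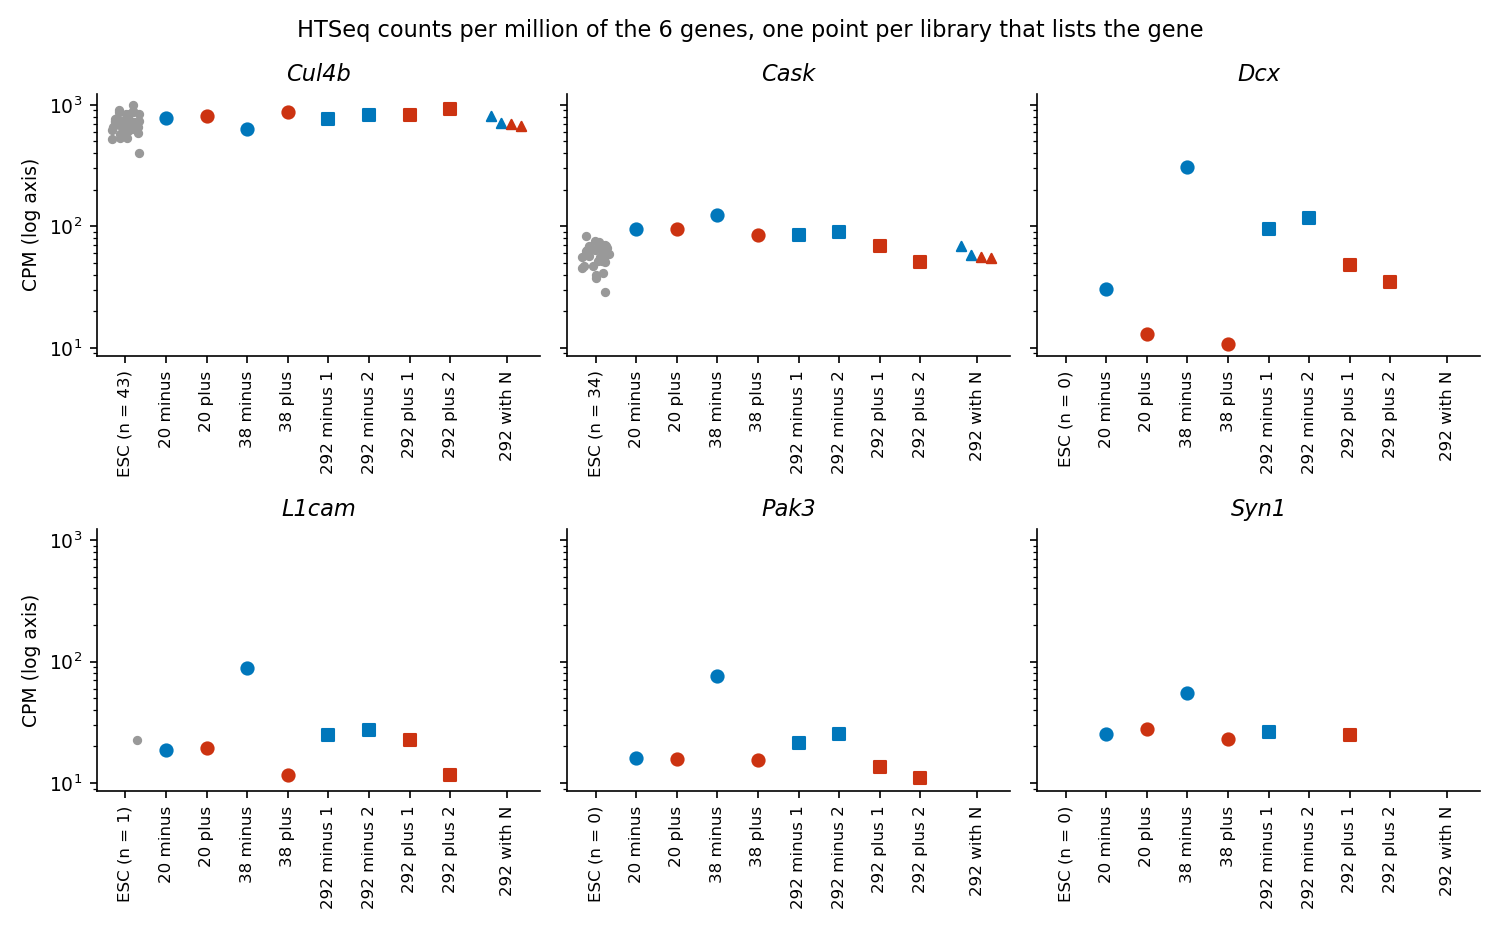
Levels of the 6 genes in CPM on a log axis, with 1 point per library that lists the gene. Grey points are ESC libraries, circles the neuron libraries 20 and 38, squares the 292 libraries without N and triangles those with N, in blue without and in red with doxycycline. Dcx, L1cam, Pak3 and Syn1 have their highest value in 38 minus, and Cask is above its ESC range in all 4 neuron libraries.

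To compare cell types within 1 clone, neurons were tested against the ESC libraries labelled 38. Neither Cul4b nor Cask is listed in all 8 libraries, so each was tested in a fit over the libraries that list it. Cask was at 29.0 CPM in ESC 38 minus 2, 62.3 in ESC 38 plus 1 and 51.3 in ESC 38 plus 2, so its 3 ESC and 4 neuron values do not overlap, which holds in this direction for 28.6% of all genes in these libraries. It was higher in neurons by 0.97 ± 0.24 (log2, SE), a fold of 1.962 with an adjusted p of 0.0155 (edgeR quasi-likelihood test, Benjamini-Hochberg over all genes), and 16.8% of all genes were called higher in this fit. The call was lost without ESC 38 minus 2, where the difference was 0.61 with an adjusted p of 0.0864, and without ESC 38 plus 2, with an adjusted p of 0.0569. Cul4b was at 579 CPM in ESC 38 minus 1 and 526.2 CPM in ESC 38 plus 1, again below the neurons, as for 32.7% of all genes in these libraries. Its difference of 0.42 ± 0.16 missed the threshold with an edgeR adjusted p of 0.108, in a fit in which 10.5% of all genes were called higher, and passed it without the neuron library 38 minus (adjusted p of 0.0265). The ESC libraries had less depth than the neurons, and of the 9 pluripotent cell markers 8 were called lower in neurons with a median of -1.26 on the log2 scale. The part of these cells and of depth in the differences was not tested. In RNA from whole cultures, fewer cells of a type and less RNA per cell cannot be told apart.

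Within the neuron libraries, Dcx, L1cam, Pak3 and Syn1 stood out in a single one, 38 minus. Dcx was at 30.4 CPM in 20 minus, 13.0 in 20 plus, 305 in 38 minus and 10.8 in 38 plus. L1cam was at 18.6, 19.3, 88.6 and 11.7 CPM in the same order. Pak3 was at 16.1, 15.7, 76.8 and 15.4 CPM. All 3 genes were thus lowest in 38 plus and highest in 38 minus, 2 libraries of 1 line. Syn1 was at 25.2, 27.8, 55.2 and 22.9 CPM, in the same pattern. Between the untreated libraries, 38 minus exceeded 20 minus 10.03-fold for Dcx, 4.77-fold for Pak3, 4.75-fold for L1cam and 2.19-fold for Syn1. Cask was 1.30-fold higher in 38 minus and Cul4b lower, at 0.817 of its level in 20 minus.

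The library 38 minus also had the highest sum of neuron markers, 1503 CPM, of neural progenitor markers with 2067 CPM, of glia markers with 515 CPM and of mesoderm, endoderm and fibroblast markers with 641 CPM. In the other 3 neuron libraries these 4 lists summed to 191 to 375, 646 to 850, 87.9 to 154 and 123 to 254 CPM. Its 9 pluripotent cell markers had the lowest sum, 2639 CPM. Among the neuron markers Map2, which binds microtubules of dendrites, was at 25.8 CPM in 20 minus, 13.8 in 20 plus, 231 in 38 minus and 14.4 in 38 plus. Not every marker was highest in 38 minus. Nefl was at 98.6 CPM in 20 minus against 59.7 in 38 minus, and Sox1 at 64.7 in 20 plus against 46.3. Pdgfra was at 59.5 CPM in 38 plus against 48.1, and T at 14.8 in 20 minus against 6.83. In 38 minus Vim alone gave 1270 CPM of the progenitor sum, Slc1a3 265 of the glia sum and Col3a1 331 of the last sum. The list sums were thus highest in the library in which Dcx, L1cam, Pak3 and Syn1 were highest. The part of these markers in the levels of the 6 genes was not tested.

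Doxycycline-treated neurons were then compared with untreated ones, a test of X-linked genes with the transgene on another chromosome. None of the 6 genes passed the edgeR quasi-likelihood test, nor did any of the 11292 genes tested (0%), although 260 had an unadjusted p under 0.05 and DESeq2 called 23. Dcx had the largest difference of the 6, -3.75 ± 1.06 (log2, SE), or 13.4-fold lower with treatment. Its unadjusted p in edgeR was 0.0160 and its adjusted p 1, and DESeq2 called it with an adjusted p of 0.00608. L1cam differed by -1.73 ± 0.74, Pak3 by -1.52 ± 0.70, Syn1 by -0.62 ± 0.40, Cask by -0.25 ± 0.20 and Cul4b by 0.26 ± 0.21, each with an adjusted p of 1. These sizes came mostly from line 38. Treated over untreated, the log2 ratio of CPM in line 38 was -4.82 for Dcx, -2.92 for L1cam, -2.32 for Pak3, -1.27 for Syn1, -0.54 for Cask and 0.45 for Cul4b. In line 20 it was -1.22 for Dcx and between -0.03 and 0.14 for the other 5, where the middle 50% of 11232 genes ran from -0.12 to 0.14. With the line as a replicate block, Dcx differed by -3.03 with an edgeR adjusted p of 0.729. Over the alternative fits, among them the line block, L1cam ranged from -1.73 to -1.42 and Pak3 from -1.52 to -1.17. Syn1 ranged from -0.62 to -0.55, Cask from -0.25 to -0.23 and Cul4b from 0.26 to 0.27. With 1 library left out, Dcx ranged from -4.60 to -1.37, L1cam from -2.43 to -0.28 and Pak3 from -2.22 to -0.0708. Each such fit leaves 1 library in a group, which is assumed to vary like the others, so only sizes are given.

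**Figure D2:**
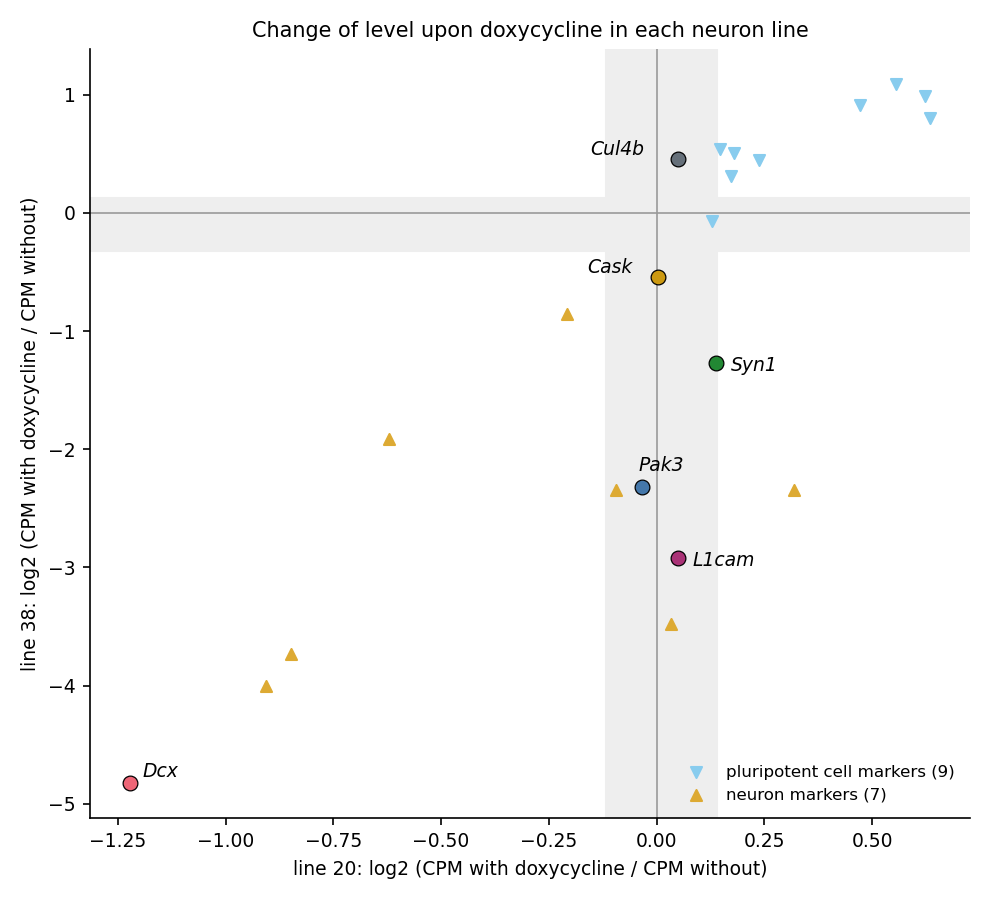
Log2 ratio of CPM with over without doxycycline in line 20 (x axis) and line 38 (y axis), 1 point per gene, for the 6 genes and for the neuron and pluripotent cell markers listed in all 4 libraries. Grey bands mark the middle 50% of all genes. Dcx is lower with treatment in both lines, at -1.22 and -4.82, and L1cam, Pak3 and Syn1 are lower in line 38 at -2.92, -2.32 and -1.27 but within or near the grey band in line 20.

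Partners of the 6 genes, on fixed lists, were described in the same comparison. No gene of any list was called by edgeR, and medians differed by list. Of the synaptic vesicle partners of Syn1, 5 were tested with a median of -1.11 (log2). Among them Syp, the vesicle protein synaptophysin, was at -1.72 ± 0.84. Of the L1cam family and partners, 7 were tested with a median of -1.005, and the adhesion molecules Ncam1 and Nrcam were at -1.79 ± 0.77 and -1.55 ± 0.60. The 8 scaffold partners of Cask had a median of -0.67, with the neurexin Nrxn2 at -2.92 ± 0.95 and the postsynaptic scaffold Dlg4 at -2.71 ± 0.98. For the 9 genes of the Dcx family and partners the median was -0.55, with the neuronal tubulin Tubb3 at -1.36 ± 0.54. These 4 lists hold many genes of synapses and axons. The 13 kinase partners of Pak3 and the 10 ubiquitin ligase partners of Cul4b, most of which are expressed in many cell types, had medians of -0.08 and -0.12, and all 11292 genes a median of -0.02. The 7 tested neuron markers had a median of -1.36, with Map2 at -3.12 ± 0.98, the 5 progenitor markers -0.79, the 4 glia markers -0.10, the 6 mesoderm, endoderm and fibroblast markers -0.19 and the 9 pluripotent cell markers 0.42. The 67 other X-linked disease genes had a median of 0.09, with Syp lowest. All these medians are from the fit without the line, in which 38 minus is among the untreated libraries. Tubb3 was at 101 CPM in 20 minus and 94.7 in 20 plus, but at 316 in 38 minus and 62.5 in 38 plus. Whether the lists differ with treatment in both lines was not tested.

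Against ESCs of the same clone, 16.5% of the 6777 genes listed in all 8 libraries were called higher in neurons and 17.9% lower by edgeR, a split of 1116 to 1214 that became 707 to 1451 when libraries were scaled by total reads. Of the kinase partners of Pak3, 4 of 10 tested were called higher, among them its paralogues Pak1 by 1.84 ± 0.17 and Pak2 by 0.81 ± 0.18, and the adaptor Git1 was called lower, at -0.91 ± 0.16 (log2). Of the Dcx family and partners, 3 of 7 were higher, with the microtubule protein Map1b at 1.55 ± 0.44 and Tubb3 at 1.22 ± 0.39. Of the scaffold partners of Cask, 2 of 4 were higher, Dlg3 by 1.04 ± 0.17 and Lin7c, which binds Cask, by 0.65 ± 0.15. Of the Cul4b partners, 1 of 7 was higher, Dcaf7 by 1.06 ± 0.22. These counts are read against a background in which 16.5% of genes were called higher. Ncam1, the 1 gene of the L1cam list that could be tested, differed by 0.80 ± 0.60 and was not called, and no vesicle partner of Syn1 was listed in all 8 libraries. Of the other X-linked disease genes, 45 were tested, 7 were higher and 3 lower, and Flna, an actin crosslinker, rose most, by 2.35 ± 0.25. Neural progenitor markers were higher in 2 of 2 tested and neuron markers in 1 of 2, and the glia marker Slc1a3 differed by -0.36 ± 0.72. No mesoderm, endoderm or fibroblast marker could be tested.

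In the neuron libraries both alleles of all 6 genes were read. The Cast/all ratio is given here in percent, as the share of Cast reads among the allele-specific reads of a gene. For Cask it was 50.6% in 20 minus, 53.5% in 20 plus, 60.2% in 38 minus and 57.6% in 38 plus, from 288 to 566 reads. For Cul4b it was 46%, 44.8%, 53.3% and 47.5% in the same order, from 87 to 217 reads. The medians of the other X-linked genes proximal to 149 Mb with at least 20 reads were 49.2%, 51.6%, 53.2% and 51.4%, so that Cask was above the median in each library and Cul4b below it in 3 and about at it in 38 minus. For Dcx the share was 58.1%, 44.4%, 59.2% and 57.5%, from 18 to 1769 reads. For L1cam it was 52.0%, 55.3%, 58.1% and 64.9%, from 37 to 267 reads. In 38 minus, where both are read most deeply, 64 of 328 other X-linked genes (19.5%) were higher than Dcx and 80 (24.4%) higher than L1cam. For Pak3 the share was 53.1%, 65.2%, 56.8% and 46.4%, from 23 to 391 reads, and for Syn1 62.5%, 50%, 52.6% and 63.6%, from 10 to 38 reads. Where reads are few the intervals are wide, as for Dcx in 20 plus, where 8 of 18 reads were Cast with a 95% Wilson interval from 24.6% to 66.3%. Such intervals cover counting error only.

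Upon doxycycline no shift of the allelic ratio of the 6 genes was detectable in neurons. The shift of the Cast to 129 ratio was -0.33 ± 0.31 (log2, SE) for Dcx, 0.23 ± 0.40 for L1cam, -0.21 ± 0.29 for Cul4b, -0.20 ± 0.41 for Pak3, 0.05 ± 0.62 for Syn1 and -0.02 ± 0.25 for Cask, each with an edgeR adjusted p of 1. None had an unadjusted p under 0.05, and DESeq2 called none. Of all genes 0.00886% and of X-linked genes 0% were called by edgeR. With the line as a replicate block 139 genes were called, but again none of the 6. The 95% interval was narrowest for Cask, from -0.50 to 0.47, and widest for Syn1, from -1.17 to 1.27, so that for Syn1 only large shifts could have been seen at this depth. The level of Dcx in line 38 thus differed 28.3-fold between the libraries while its Cast share was 59.2% and 57.5%. Between neurons and ESCs labelled 38, the ratio of Cask differed by 0.80 ± 0.54 with an edgeR adjusted p of 0.501, from ESC shares of 33.3%, 60.0% and 33.3% with 9 to 12 reads, in a fit that called 3.42% of genes. That of Cul4b differed by -0.22 ± 0.53 with an adjusted p of 0.945, from ESC shares of 45% and 66.7%, in a fit that called 1.44% of genes.

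**Figure D3:**
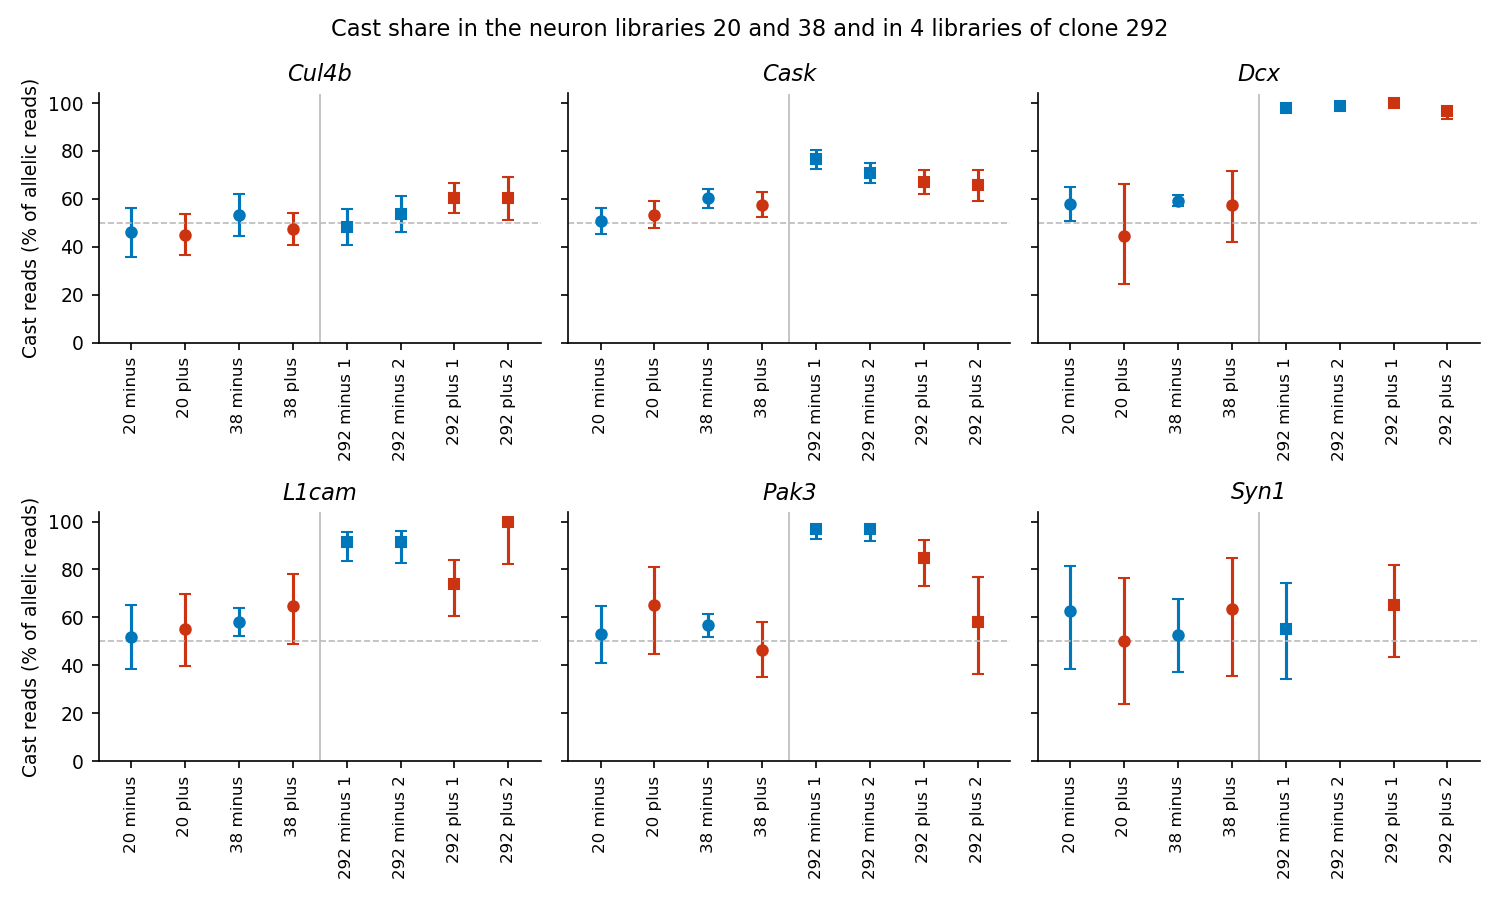
Share of Cast reads in percent with 95% Wilson intervals for the 6 genes, in the neuron libraries 20 and 38 (circles) and in the 4 libraries of clone 292 without N (squares), in blue without and in red with doxycycline, where the dashed line marks 50%. Dcx is at 96.7% to 100% in the 292 libraries and at 44.4% to 59.2% in the neuron libraries.

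The 4 libraries of clone 292 without N differed from the neuron libraries 20 and 38 in that Dcx was read almost solely from the Cast allele in all 4, L1cam at over 90% in 3 and Pak3 at over 90% in 2. Dcx was 98% Cast in minus 1 (652 of 665 reads), 99.0% in minus 2 (673 of 680), 100% in plus 1 (304 of 304) and 96.7% in plus 2 (204 of 211). Its neighbour Pak3 was 96.7% (147 of 152), 96.7% (118 of 122), 84.9% (45 of 53) and 57.9% Cast (11 of 19) in the same order. L1cam was 91.6% (76 of 83), 91.4% (64 of 70), 74.0% (37 of 50) and 100% Cast (18 of 18). Of the 3 genes Dcx was thus near 100% in all 4 libraries, while Pak3 was highest in the untreated libraries and L1cam without that order. Cask was less skewed, with 76.7%, 70.9%, 67.2% and 65.8% Cast from 202 to 454 reads. Cul4b was at 48.2%, 53.8%, 60.5% and 60.4% from 111 to 233 reads, and Syn1 at 55% in minus 1 and 65.0% in plus 1, from 20 reads each. The 6 genes thus ran from about the same share of both alleles to a single allele within 1 library, minus 1. Because cell type and group of these libraries are uncertain, no test was made.

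Other X-linked genes were also shifted towards Cast in these libraries, but less than Dcx. The other X-linked genes proximal to 149 Mb with at least 20 reads had medians of 60.3% in minus 1, 60.8% in minus 2, 55.8% in plus 1 and 56.1% in plus 2, over 331 to 339 genes. Of these, 1, 3, 0 and 2 were higher than Dcx, which is 0.295%, 0.904%, 0% and 0.595%. Of the 315 proximal X-linked genes with 20 reads in all 4 libraries, 4 were above 90% in each of them, Cxx1b, Cxx1c, Dcx and Slitrk2. Of the other X-linked disease genes under the same limits of position and reads none was above 90% in any of the 4, and examples are the vesicle gene Syp at 87.1% in minus 1 and 80% in plus 1, and Tspan7 at 81.6% in plus 2. A skew beyond that of the chromosome was seen mainly in genes not listed in ESCs. Proximal X-linked genes listed in no ESC library had medians of 70.3%, 71.4%, 63.8% and 62.9% over 44 to 51 genes, whereas the 176 genes listed in at least 40 ESC libraries had medians of 57.8%, 58.8%, 55.3% and 54.8%. In the neuron libraries 20 and 38 the medians of the former were 52.6%, 53.0%, 57.3% and 54.7% and of the latter 49.0%, 50.6%, 52.3% and 50.9%. Genes of the first kind have fewer reads, and no test was made of this contrast.

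**Figure D4:**
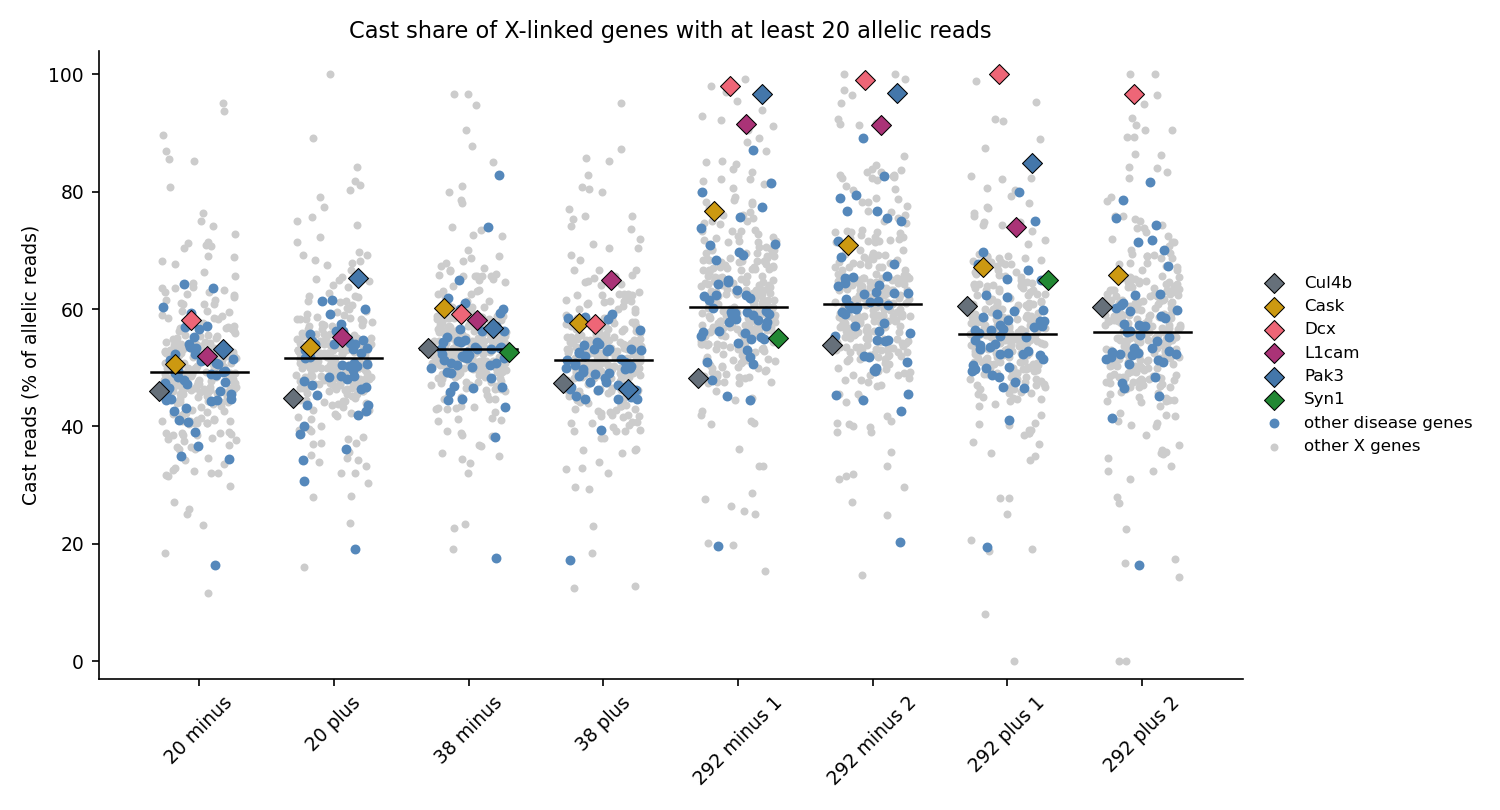
Share of Cast reads in percent of X-linked genes proximal to 149 Mb with at least 20 allele-specific reads, 1 point per gene and library, in neuron libraries 20 and 38 and in the 292 libraries without N. Diamonds are the 6 genes, blue points the other disease genes, grey points the rest and black lines the median without the 6 genes. Dcx is above all blue points in the 4 libraries of clone 292, at 96.7% or more, and at 57.5% to 59.2% in the 3 neuron libraries in which it has 20 reads.

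Xist was read from the Cast allele at 14.2% in 292 minus 1, 14.1% in minus 2, 56.6% in plus 1 and 54.1% in plus 2, at 523 to 960 CPM, against 52.9% in neuron library 20 minus and 32.3% in 38 minus. Reads of endogenous and transgenic Xist are not separated in the files. Distal to 149 Mb, where none of the 6 genes lies, the median X-linked gene was 100% Cast in all 8 libraries of clone 292, and 49.5% to 53.4% in the neuron libraries 20 and 38. It was also 100% in all libraries of the Tg-X and Tg-X;8 clones, which carry the translocation, and of clone 160, but 47.5% to 51.1% in ESCs of the Tg-12 clones 228, 273 and 38. In this respect the libraries labelled 292 were like those of the translocation clones and unlike the other Tg-12 libraries. Neuron markers summed to 640, 638, 429 and 382 CPM in the 4 libraries without N, above or just above the range of ESCs. Of the 15 markers 12 to 14 are listed there against 2 to 7 in ESCs, and those not listed add nothing. Pluripotent cell markers summed to 5428, 5545, 6929 and 8393 CPM. Progenitor markers summed to 787 to 1325 CPM, glia markers to 144 to 267 CPM and mesoderm, endoderm and fibroblast markers to 235 to 441 CPM. The part of these in the shares was not tested. Dcx was at 95.7 CPM in minus 1, 117 in minus 2, 47.8 in plus 1 and 34.6 in plus 2. Pak3 was at 21.3, 25.5, 13.6 and 11.1 CPM, L1cam at 24.8, 27.4, 22.6 and 11.7 CPM and Cask at 85.0, 89.2, 68.3 and 50.5 CPM. These 4 genes were each highest in minus 2 and lowest in plus 2, whereas Cul4b was lowest in minus 1 and highest in plus 2, at 764, 818, 826 and 917 CPM. Syn1 was at 26.3 CPM in minus 1 and 24.7 CPM in plus 1. In the 4 libraries with N, of 1490471 to 2394903 reads, only Cul4b and Cask were listed. There Cul4b was 29.0% to 57.1% and Cask 27.8% to 72.7% Cast, at 666 to 809 and 55.2 to 68.3 CPM.

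In ESCs the design asks whether Cul4b and Cask, the 2 genes listed there, lose expression from the allele in cis with the induced transgene. In Tg-E clone 87 the Cast share of Cul4b was 34.9% and 42.9% without and 31.6% and 21.1% with doxycycline, and 22.6% in the treated library of clone 68. That of Cask was 54.5% and 65.0% without and 29.4% and 25% with doxycycline, and 41.9% in clone 68. For both genes the treated libraries of clone 87 lie below the untreated ones. None of the 2 genes passed the test in clone 87, in which 0.97% of all genes and 30.6% of X-linked genes were called lower. Cask shifted by -1.83 ± 0.61 (log2) with an edgeR adjusted p of 0.349 and Cul4b by -0.68 ± 0.64 with an adjusted p of 0.982. Cask had an unadjusted p of 0.00911. Counts of 14 to 83 reads per library stand behind the shares in clone 87, and in clone 68 there were 53 reads of Cul4b and 93 of Cask. DESeq2 called neither gene.

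**Figure D5:**
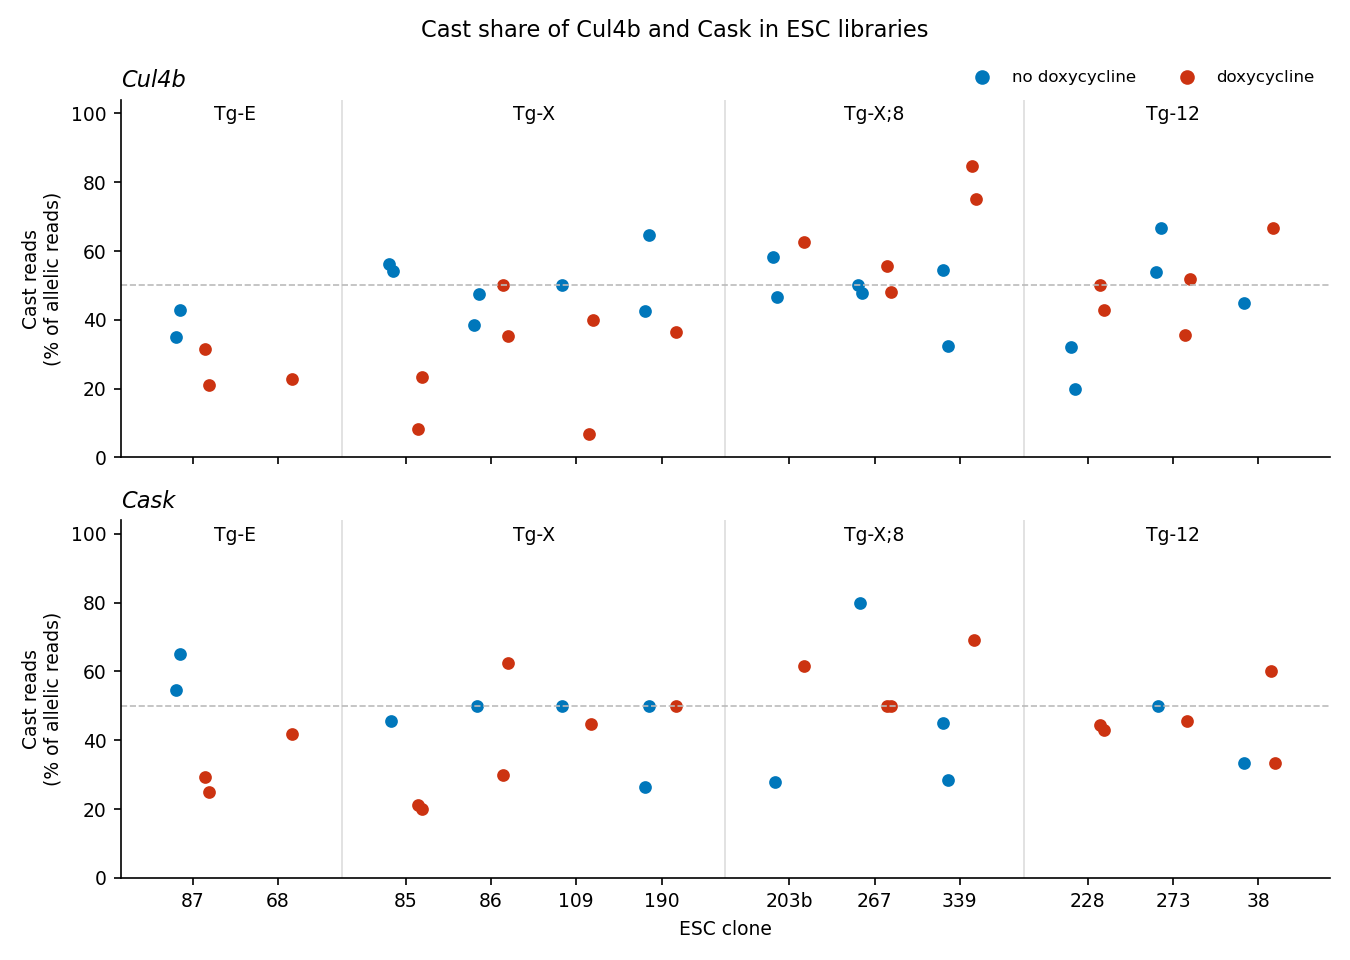
Share of Cast reads in percent of Cul4b (top) and Cask (bottom) in ESC libraries by clone and category, 1 point per library that lists the gene, in blue without and in red with doxycycline, where the dashed line marks 50%. Cul4b is lower with doxycycline on average in each of the 4 Tg-X clones and higher in each of the 3 Tg-X;8 clones.

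With the transgene at random on the Cast X (Tg-X), Cul4b ranged from 38.5% to 64.7% Cast in 7 untreated libraries, with a median of 50%. In 7 treated ones it ranged from 6.67% to 50% with a median of 35.3%. The ranges overlap. Averaged over clones the share fell from 50.5% to 29.5%, by 20.9 percentage points, and it was lower in 4 of 4 clones. With the transgene on the 129 X;8 chromosome (Tg-X;8) it moved the other way. The 6 untreated libraries had 32.4% to 58.3% Cast with a median of 48.9%, and the 5 treated ones 62.5% in clone 203b, 55.6% and 48.0% in clone 267 and 84.6% and 75% in clone 339. The mean over clones went from 48.3% to 64.7%, by 16.4 points, and was higher in 3 of 3 clones. In both categories the change is away from the allele with the transgene. These shares rest on 8 to 34 reads per library in Tg-X and 12 to 46 in Tg-X;8 clones. In an exact two-sided permutation test of treatment within clones, p was 0.0340 for Tg-X (324 arrangements of labels) and 0.0463 for Tg-X;8 (108 arrangements). Both had an adjusted p of 0.185 over the 8 tests made of Cul4b and Cask, so that neither passed the correction. In Tg-12 clones, where the transgene is not on the X, the mean of Cul4b was 43.8% without and 52.3% with doxycycline (exact permutation p of 0.472), lower in 1 and higher in 2 of 3 clones.

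Across all genes, edgeR gave Cul4b a shift of -1.43 ± 0.42 (log2, SE) in the 14 Tg-X libraries that list it, with an unadjusted p of 0.00203 and an adjusted p of 0.0598. In this fit 2.19% of all genes and 42.4% of X-linked genes were called lower. The shift passed the threshold when 1 library was left out, in 4 of 14 cases, with an adjusted p of 0.0296 without 109 plus 2, 0.0298 without 190 minus 1, 0.0417 without 86 minus 1 and 0.0365 without 86 plus 1, and DESeq2 gave an adjusted p of 0.331. In Tg-X;8 clones the shift was 0.97 ± 0.44 with an unadjusted p of 0.0328 and an edgeR adjusted p of 0.548, and 0.621% of all and 15.1% of X-linked genes were called higher. In Tg-12 clones it was 0.29 ± 0.47 over 10 libraries with an adjusted p of 0.980, and 0.227% of all and 0% of X-linked genes were called. Oriented to the allele with the transgene, the shifts differed between both categories by 0.45 ± 0.63 with an edgeR adjusted p of 0.867, in a fit that called 2.47% of genes, so no difference in the size of the loss was detectable.

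Cask was read from fewer ESC libraries, with 8 to 93 reads each, and its mean share moved less than that of Cul4b except in Tg-E. In Tg-X clones it was 45.5% in clone 85, 50% in clone 86, 50% in clone 109, and 26.3% and 50% in clone 190 without doxycycline, and 20.0% to 62.5% with a median of 37.4% in 6 treated libraries. In Tg-X;8 clones it was 27.8% in clone 203b, 80% in clone 267 and 45% and 28.6% in clone 339 without, and 61.5%, 50%, 50% and 69.2% with doxycycline. Groups overlap in both categories. The means over clones differed by -5.52 points in Tg-X and 12.1 points in Tg-X;8 clones, each with an exact permutation p of 0.5. In Tg-12 clones they differed by 4.39 points over 2 clones (exact permutation p of 1, with 1 clone higher and 1 lower). In edgeR fits over the libraries that list Cask, the shifts were -0.04 ± 0.51 in 11 Tg-X, 0.71 ± 0.65 in 8 Tg-X;8 and 0.14 ± 0.80 in 5 Tg-12 libraries, with 95% intervals that reach from -1.04 to 0.95, from -0.56 to 1.99 and from -1.42 to 1.70. In clone 160 Cul4b was 30.8% and 66.7% without and 46.2% with doxycycline, and Cask 75% without and 30.8% and 75% with it.

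The other X-linked disease genes give the background for these shifts. Of 47 tested in Tg-E clone 87, 18 were called lower in Cast share with a median of -1.05 (log2), against 30.6% of all X-linked genes called lower with a median of -0.98, and the mediator subunit Med12 was at -2.60 ± 0.45. Among Tg-X clones 16 of 35 were called lower with a median of -0.52, against 50.6% of all X-linked genes and 2.41% of all genes listed in the 16 libraries, with Acsl4, a fatty acid CoA ligase, at -1.34 ± 0.19 and Rlim, an E3 ligase that activates Xist, at -1.05 ± 0.14. In Tg-X;8 clones 4 of 39 were called higher with a median of 0.26, against 15.1% of X-linked genes with a median of 0.29. In Tg-12 clones none of 39 was called by edgeR, with a median of -0.03.

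The total level of Cul4b was lower with doxycycline in the categories with the transgene on an X. In Tg-X;8 clones it was at 744 to 883 CPM with a median of 834 in 6 untreated libraries, and at 652, 618, 755, 609 and 657 CPM in the 5 treated ones, so that the groups overlap only between 744 and 755 CPM. It fell by 0.32 ± 0.08 on the log2 scale with an edgeR adjusted p of 0.0362, and 2.8% of all genes and 21% of X-linked genes were called lower. The call was lost with the replicate number as a block (adjusted p of 0.130), without clone 267 (0.175), and without any of 7 of the 11 libraries, with adjusted p of up to 0.0906. In Tg-X clones Cul4b was at 671 to 898 CPM with a median of 782 in 7 untreated and at 404 to 763 CPM with a median of 720 in 7 treated libraries. Its difference of -0.31 ± 0.12 just missed the threshold with an edgeR adjusted p of 0.0528, in a fit that called 20.3% of all and 57.1% of X-linked genes lower. DESeq2 called it with an adjusted p of 0.0380 and scaling by total reads with 0.0333. In Tg-E clone 87 it was at 988 and 753 CPM without and 721 and 534 CPM with doxycycline, a difference of -0.52 ± 0.22 with an adjusted p of 0.590, where 0.0273% of all genes were called lower. In Tg-12 clones it differed by -0.03 ± 0.09 with an adjusted p of 0.937 over 10 libraries, in a fit that called 2.8% of all and 4.95% of X-linked genes.

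The level of Cask did not pass the test upon doxycycline in any category. It differed by 0.003 ± 0.18 in Tg-E, -0.06 ± 0.10 in 11 Tg-X, -0.09 ± 0.14 in 8 Tg-X;8 and 0.12 ± 0.32 in 5 Tg-12 libraries (log2, SE), with edgeR adjusted p of 1, 0.708, 0.836 and 0.865. In treated Tg-E libraries Cask was at 60.3, 62.9 and 58.5 CPM, against 65.1 and 53.6 CPM without doxycycline. In Tg-12 clones the 5 libraries are few, and Cask passed the test without 273 minus 1 or without 273 plus 3, with adjusted p of 0.0238 and 0.0191.

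Over the 55 libraries that list Cul4b, the log2 levels most like it were those of Jade3 (Pearson r of 0.748), Pgrmc1 (0.695) and Kif4 (0.690), among 4819 genes listed in all of them. For Cask, over 46 libraries, they were those of Specc1l (0.880), Mbtd1 (0.876) and Fbxw11 (0.858), among 5440 genes. These values are a description, since libraries share clones and differ in depth. In the median of the 4 neuron libraries, only 0.856% of the reads of Cul4b carried allele information. For Syn1 it was 2.48%, for L1cam 12.7%, for Cask 16.2%, for Pak3 18.5% and for Dcx 21.5%. Over all libraries that list them, mostly shallow ones, the medians were 0.661% for Cul4b and 5.69% for Cask. The share of the most highly expressed of the 6 genes thus rests on few reads.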

How the data were processed

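RNA-seq reads of 43 bases were mapped by the authors to mm10 with TopHat2 2.0.6, processed with SAMtools and counted per gene with HTSeq 0.6.1. The deposited counts are the Cast, 129 and HTSeq reads of each gene, not normalized, and the deposited fraction is the Cast/all ratio of the authors, which was equal to that computed from their allelic counts. The authors summed allelic reads over exonic SNPs. Genes under 8 allelic reads or under the limit of reads per site are not listed, so that fits use genes listed in all libraries compared. Where a member was missing from a library, it was tested over the libraries that list it.

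The 52 assigned libraries were grouped by their labels, and 8 of clone 292 stayed unassigned. Levels were tested with the edgeR 4.0.16 quasi-likelihood test with TMM scaling and clone as a term in ESCs, and the allelic ratio with the same test on the paired Cast and 129 counts, with Benjamini-Hochberg adjustment over all genes and a threshold of 0.05. DESeq2 1.42.0, other scalings, a minimum of 50 reads, a replicate block and leaving out libraries or clones were alternatives (R 4.3.3). Shares were tested by exact permutation within clones (Python 3.11.15, scipy 1.17.1). The tests were run on simulated data with a fixed spread between libraries. The spread seen between the neuron libraries was not simulated, so this was no check of the neuron fits. Neurons of the same line deviated together (r = 0.507), and their number is the line. The fit without the line was nevertheless fixed as the main one. The fit with the line as a block is given by itself only for the level of Dcx and the count of allelic shifts. Replicates are libraries of 1 clone, and p-values measure only the spread between them. The members and lists were chosen with earlier results of these data known. Of each list at most the 3 genes with the largest and the 2 with the smallest change in a comparison were named, and for Cul4b and Cask the 3 genes with the most similar levels. Some genes of the lists are not reported here by name. Promoter windows are from RefSeq, GRCm38.p6. ESC libraries held 731374 to 5830149 allelic reads, so a share of few reads has a wide interval.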

Additional observations from a re-analysis of the deposited data

Results flagged for a closer look

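In untreated Tg-X ESCs, the Cast share of Cask in 190 minus 1 was 26.3%, far from the nearest of the other 4 libraries at 45.5%. It was the 1 value that stood apart from its group in 22 groups examined, a number that chance alone can give.

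In libraries of clone 292 without N, which are in no group, the lower 95% Wilson bound of the Cast share was in places above the highest upper bound of the neuron libraries 20 and 38. This held for Pak3 at 96.7% in minus 1 and 96.7% in minus 2 (bound 81.2%), for L1cam at 91.6% in minus 1, 91.4% in minus 2 and 100% in plus 2 (bound 78.2%), for Dcx at 98%, 99.0%, 100% and 96.7% in all 4 (bound 71.5%), and for Cask at 76.7% in minus 1 and 70.9% in minus 2 (bound 64.2%).

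The Cast share of Cul4b moved in opposite directions upon doxycycline in ESCs, by -20.9 points in Tg-X and by 16.4 points in Tg-X;8 clones. The difference between these shares was not tested. Counted towards the allele that carries the transgene, the shifts differed by 0.45 ± 0.63 (log2, SE) with an edgeR adjusted p of 0.867.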

How the results depend on the processing

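With 1 library left out, several differences that had not passed the test changed sign. On the log2 scale the allelic shift ranged from -0.47 to 0.31 for Cask in Tg-X, from -0.26 to 0.71 for Cask in Tg-12 and from -1.21 to 0.29 for Cul4b between neurons and ESCs. In neurons it ranged from -0.53 to 0.57 for Pak3, -0.41 to 0.0186 for Cul4b, -0.36 to 0.43 for Syn1, -0.0496 to 0.53 for L1cam and -0.28 to 0.29 for Cask. The level of Cask ranged from -0.0906 to 0.10 (Tg-E), from -0.15 to 0.0696 (Tg-X), from -0.23 to 0.0887 (Tg-X;8) and from -0.55 to 0.67 (Tg-12), and that of Cul4b in Tg-12 from -0.0776 to 0.0100. Signs also changed for the allelic shift of Syn1 in neurons with DESeq2 (-0.00875), the level of Cask in Tg-E with clone 68 (-0.0243) or RLE scaling (-0.000315), and the difference of shifts of Cul4b without clone 267 (-0.130). The number of members called for level was 1 with DESeq2 and 1 by total reads in Tg-X, 0 with the replicate block and 0 without clone 267 in Tg-X;8, and 1 with DESeq2 in neurons. With 1 library left out it was 0 to 1 in the clones of Tg-12 and of both translocation categories, 0 to 2 between neurons and ESCs and 0 to 3 in neurons, and for allelic shifts in Tg-X 0 to 1. Replicate numbers of ESC clones paired the libraries unevenly (r from -0.559 to 0.663 with a mean of 0.103, 8 of 11 over 0.1). With the replicate block the level of Cul4b in Tg-X;8 had an adjusted p of 0.130 (edgeR). Genes called for allelic shifts went from 77 to 26 with DESeq2 and 49 with the block in Tg-E, from 208 to 128 with DESeq2 in Tg-X, from 58 to 18 with DESeq2, 36 with the block and 28 without clone 267 in Tg-X;8, from 4 to 1 with DESeq2 and 1 with clone 160 in Tg-12, from 1 to 8 with DESeq2 in neurons, and for the difference of shifts from 129 to 81 with DESeq2 and 79 without clone 267. For levels they went from 2 to 41 with DESeq2, 0 with 50 reads, 18 with the block, 4 with clone 68 and 1 with RLE in Tg-E, from 394 to 146 with the block and 46 without clone 267 in Tg-X;8, from 6 to 105 with DESeq2, 2 with 50 reads, 0 with the block and 10 with clone 160 in Tg-12, from 2330 to 1312 with only line 38 between neurons and ESCs, and from 0 to 23 with DESeq2 in neurons. The cause was not tested. Leaving out libraries was not run for the difference of shifts. Depth limits the shares of Cul4b and Cask in ESCs.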
